A study of Mus musculus with 64 samples.

Results

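The miR-17-92 and miR-15/16 microRNA families were followed in the liver and the gonadal adipose tissue of arsenic-exposed mice that carried either their own or a humanized arsenite methyltransferase gene (AS3MT), the enzyme that methylates inorganic arsenic. Members were all mature microRNAs, counted in their unshifted form, of miR-17, miR-18a/b, miR-19a/b, miR-20a/b, miR-25, miR-92a/b, miR-93, miR-106a/b and miR-363 (the miR-17-92 cluster and its paralogues) or of miR-15a/b, miR-16, miR-195, miR-322, miR-497 and miR-503 (the miR-15/16 family) with a mean signal of 10 or more in liver or adipose tissue. This gave 37 of the 560 unshifted small RNA ids that were listed in the tables of both tissues and met that mean in either. Of the ids of these families in both tables, miR-18b-5p (means 0 and 1.28), miR-19b-1-5p (means 0 and 0.761) and miR-20a-3p (means 0.995 and 1.64) fell short of that mean in liver and adipose tissue, whereas the member nearest to it, miR-363-5p, had means of 0 and 16.3. The rule used no difference between groups. Among the members, 15 are main strands of the miR-17-92 side, 8 of the miR-15/16 side and 14 are the other strands of their hairpins. All animals were 129S6/SvEvTac mice and all drank inorganic arsenic (iAs) at 400 ppb for 4 weeks, so no group here was without arsenic. Wild-type females (WTF) and wild-type males (WTM) were compared with humanized females (HUMF) and humanized males (HUMM), which express the human orthologue of AS3MT. The small RNA libraries numbered 5 WTF, 5 HUMF, 5 WTM and 6 HUMM in liver and 5 WTF, 6 HUMF, 4 WTM and 5 HUMM in adipose tissue. Poly(A) or ribosome-depleted RNA of liver (3 libraries a group) and mRNA of adipose tissue (3 a group, 2 in WTM) gave the host, regulator and target genes.

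The families work mainly as brakes on other mRNAs. Each mature microRNA pairs through its seed, bases 2 to 8, with sites in mRNAs and lowers their stability and translation. The miR-17-92 cluster (the Mir17 cluster on mouse chromosome 14) and its paralogues, the Mir106b cluster on chromosome 5 and the Mir106a cluster on the X chromosome, are induced by MYC and E2F factors, favour cell cycle entry and restrain the pro-apoptotic Bim and the TGF-beta receptor. The miR-15/16 family (the Mir15a cluster on chromosome 14, the Mir15b cluster on chromosome 3, the Mir497 cluster on chromosome 11 and the Mir322 cluster on the X chromosome) acts the other way, restraining D-type cyclins, other G1 regulators and Bcl2. Mcm7 hosts the Mir106b cluster, Smc4 the Mir15b cluster and Dleu2 the Mir15a cluster in their introns.

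The sequences show which members can share targets. Mature sequences from RefSeq (GRCm38.p6) were found for 36 of the 37 members and comprised 33 distinct sequences; those of the members on which the results turn are printed 5′ to 3′, with the seed in capitals. Members that share AAAGUGC are miR-17-5p, miR-20a-5p, miR-20b-5p, miR-93-5p, miR-106a-5p and miR-106b-5p.
miR-93-5p: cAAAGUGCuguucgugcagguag
miR-106b-5p: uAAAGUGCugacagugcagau
miR-18a-5p has the seed AAGGUGC and miR-19a and miR-19b the seed GUGCAAA, which is the only seed of the Mir17 cluster's main strands that starts with G.
miR-18a-5p: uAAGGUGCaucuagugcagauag
miR-19b-1-3p: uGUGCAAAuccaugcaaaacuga
miR-25-3p, miR-92a-3p, miR-92b-3p and miR-363-3p share AUUGCAC.
miR-25-3p: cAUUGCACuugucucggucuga
miR-92a-1-3p: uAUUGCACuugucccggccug
The miR-15/16 family shares AGCAGCA, whichever chromosome its members come from, and miR-503-5p differs from it in the last seed base (AGCAGCG).
miR-15a-5p: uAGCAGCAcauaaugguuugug
miR-15b-5p: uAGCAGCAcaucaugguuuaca
miR-16-1-5p: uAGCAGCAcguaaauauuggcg
miR-195-5p: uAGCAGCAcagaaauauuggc
miR-322-5p: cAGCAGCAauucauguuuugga
miR-503-5p: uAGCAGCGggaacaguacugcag

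Read numbers were inferred from the small RNA values, since no source used here gives them. In every library all values lay within 0.01 of whole multiples of 1 step and the smallest stood at 10 steps. With a step taken as 1 read, the smallest listed value is 10 reads, worth a signal of 6.65 to 19.8 in liver and 5.49 to 16.1 in adipose tissue, a 0 means fewer than 10 reads, and the listed reads sum to 5819451 to 16647090.0 in liver and 10772191 to 34352654 in adipose libraries. Library names came in 2 forms and all groups held both, and the form was a term in each small RNA model. Of the animal tags in the names, 18 stood in both tissues, so liver and adipose tissue were not tested against each other. WTM adipose libraries stood apart in their markers of blood and liver. Erythroid microRNAs (4 of the 5 listed were found, all above 0 in every library) summed to a signal of 116849 to 523818 in WTM adipose tissue against 54435 to 136859 in WTF, 36652 to 99941 in HUMF and 70188 to 133160.4 in HUMM. The 3 hepatocyte microRNAs summed to 162488 to 780923 in WTM against 49938 to 201876, 75344 to 108964 and 59677 to 161122 in the other groups, and to 5056004 or more in every liver library. Of the adipose results, the members called by sex and those named by genotype in males are given also without the 2 WTM libraries with the highest erythroid sums. Defining transcripts matched the labelled tissues: the summed adipocyte genes (Adipoq, Plin1 and Lep) reached 442988 or more in every adipose library and at most 19.6 in liver. In bulk tissue, fewer cells of a type and less RNA per cell cannot be told apart.

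In both tissues a few members made up most of the families. In adipose tissue miR-16-5p led, with 4874 ± 1163 ppm of the listed signal (mean and SD, n = 20). It was followed by miR-25-3p with 3608 ± 968, miR-93-5p with 2969 ± 752 and miR-497-5p with 1649 ± 443. Next came miR-92a-3p with 1099 ± 454 and miR-195-5p with 1083 ± 298.1. miR-25-3p and miR-93-5p, and miR-92a-3p and miR-195-5p, lay within 1 SD of each other. Levels of miR-92a-3p named without a locus are those of the Mir92-1 entry. The Mir92-2 entry held a further 178 ppm in adipose tissue and 95.7 in liver. In liver the order was miR-92a-3p (2024 ± 794 ppm, n = 21), miR-16-5p (1866 ± 449), miR-25-3p (1214 ± 359) and miR-93-5p (1096 ± 198), of which miR-92a-3p and miR-16-5p, and miR-25-3p and miR-93-5p, lay within 1 SD of each other. The 36 members with a sequence are 21.0 to 23.0 bases long, and whether each sequence was recovered equally well was not tested. At the other end, miR-106a-5p of the X-linked paralogue cluster held 1.66 ± 1.05 ppm in liver and 6.04 ± 3.27 in adipose tissue, and miR-363-3p and miR-363-5p passed the mean of 10 in adipose tissue only.

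**Figure D1:**
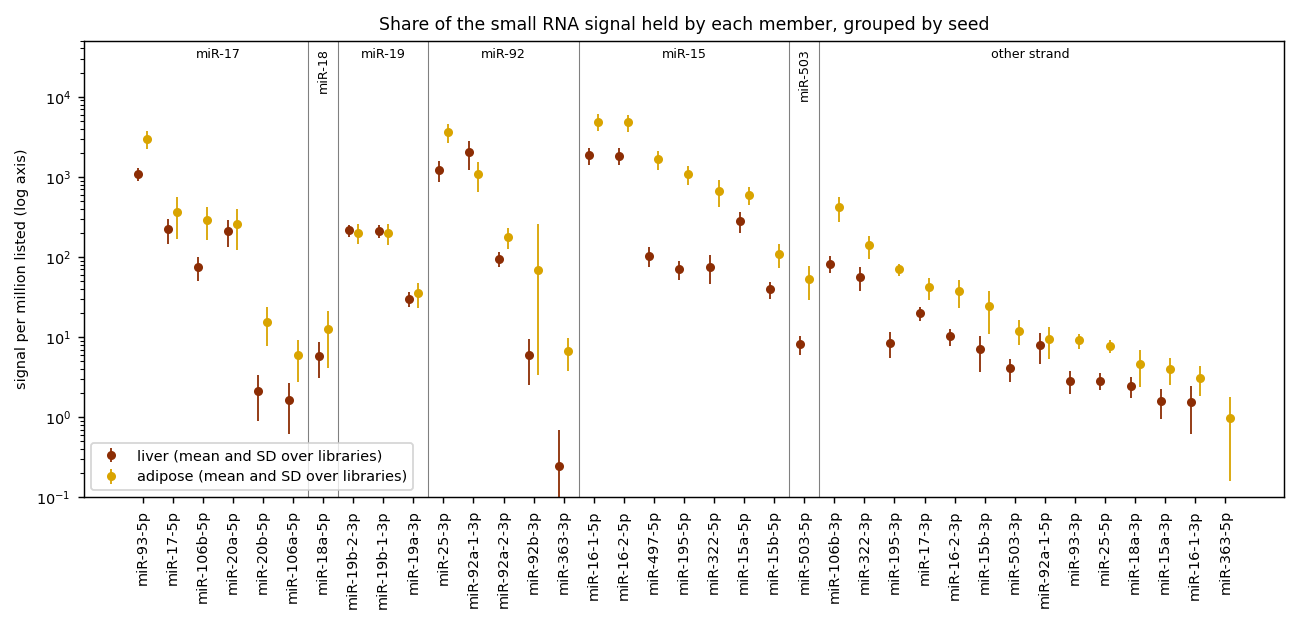
Mean share of the listed small RNA signal (ppm, log axis) held by each of the 37 members in liver (n = 21 libraries) and adipose tissue (n = 20), with bars for the SD, grouped by seed. miR-93-5p and miR-16-5p stand highest in their seed groups in both tissues. In the miR-92 seed group, miR-92a-3p stands highest in liver and miR-25-3p in adipose tissue. The other strands of the hairpins lie mostly lower.

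Within a seed group, the members' shares differed between the tissues, given here side by side with no test. miR-93-5p held a median of 67.9% of the signal with the miR-17 seed in liver and 76.95% in adipose tissue, so the Mir106b cluster, not the founding Mir17 cluster, supplied most of that seed in both. miR-17-5p held 14.5% and 8.597%, and miR-20a-5p 12.3% and 6.37%. For the miR-92 seed, miR-25-3p held 38.3% in liver and 73.7% in adipose tissue, and miR-92a-3p 58.98% and 21.1% under Mir92-1 and a further 2.97% and 3.40% under Mir92-2. miR-92b-3p, from its own locus on chromosome 3, had a median of 0.610% in adipose tissue but reached 14.8% in 1 library. Of the signal with the miR-15 seed, miR-16-5p held 76.6% in liver and 52.9% in adipose tissue. The Mir497 cluster stood at 18.3% for miR-497-5p and 12.0% for miR-195-5p in adipose tissue and at 4.39% and 2.94% in liver. miR-322-5p held 2.88% in liver and 7.14% in adipose tissue.

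Some members are listed under more than 1 locus with the same mature sequence, and their reads cannot be assigned to a locus. miR-16-5p from Mir16-2 had 0.973 to 0.993 times the signal of that from Mir16-1 in liver and 0.987 to 0.996 times in adipose tissue. The copies of miR-19b-3p were as close, with ratios of 1.02 to 1.03 and 1.01 to 1.02. These pairs are near duplicates and enter the seed shares once, as their mean, but the counts of members include both entries. miR-92a-3p from Mir92-2 (Mir106a cluster) had 0.0290 to 0.0970 times the signal of that from Mir92-1 (Mir17 cluster) in liver and 0.0815 to 0.346 times in adipose tissue. Its hairpin continues with A where that of Mir92-1 continues with U, as read from the RefSeq hairpins. The hairpins of the miR-19b-3p copies also differ at that base, with C for Mir19b-1 and U for Mir19b-2, although their signals were close. The part of that base in the ratios was not tested. How the reads of the miR-92a-3p pair were divided is not given in the sources used here. Forms that start 1 or more bases away from the annotated end were listed apart and were not members. Their median share of all forms in adipose tissue was 39.7% for miR-503-3p, 42.01% for miR-16-1-3p, 30.9% for miR-322-3p and 8.30% for miR-106b-3p.

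Males and females differed in adipose tissue in many members. Of the 37 members, 16 differed between males and females, averaged over the genotypes, at an adjusted p under 0.05 (limma on log2 of the signal plus 1, Benjamini-Hochberg over all 1298 small RNAs tested), 13 higher in males and 3 lower. With each near-duplicate pair counted once, these are 15 of 35, 12 higher and 3 lower. Over all small RNAs tested, 130 (10.0%) were called, 56 higher in males (4.31%) and 74 lower (5.70%). The members' median difference, males minus females, was 0.42 on the log2 scale, against -0.01 over all small RNAs tested, and 29 of 37 members were on the higher side. The side followed the gene cluster. All members of the Mir17 (9), Mir106b (6), Mir15a (4), Mir15b (4) and Mir322 (4) clusters had differences above 0, although that of miR-19b was 0.00 and rescaling by TMM or to equal totals moved 1 member of Mir17 and 1 of Mir106b below 0. All 3 members of the Mir497 cluster lay below 0 under each scaling. Of the Mir106a cluster, 2 lay above and 4 below (1 and 5 after either rescaling). The 2 above were the entries of miR-19b-3p and miR-92a-3p, whose sequences are also listed under the Mir17 cluster. Of the 4 below 0, those with a sequence found share it with no other cluster, and for miR-363-5p no sequence was found. Likewise, miR-16-5p counts in both the Mir15a and the Mir15b cluster, and such reads cannot be assigned to a locus. For every member called, the ranges of males and females overlapped.

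**Figure D2:**
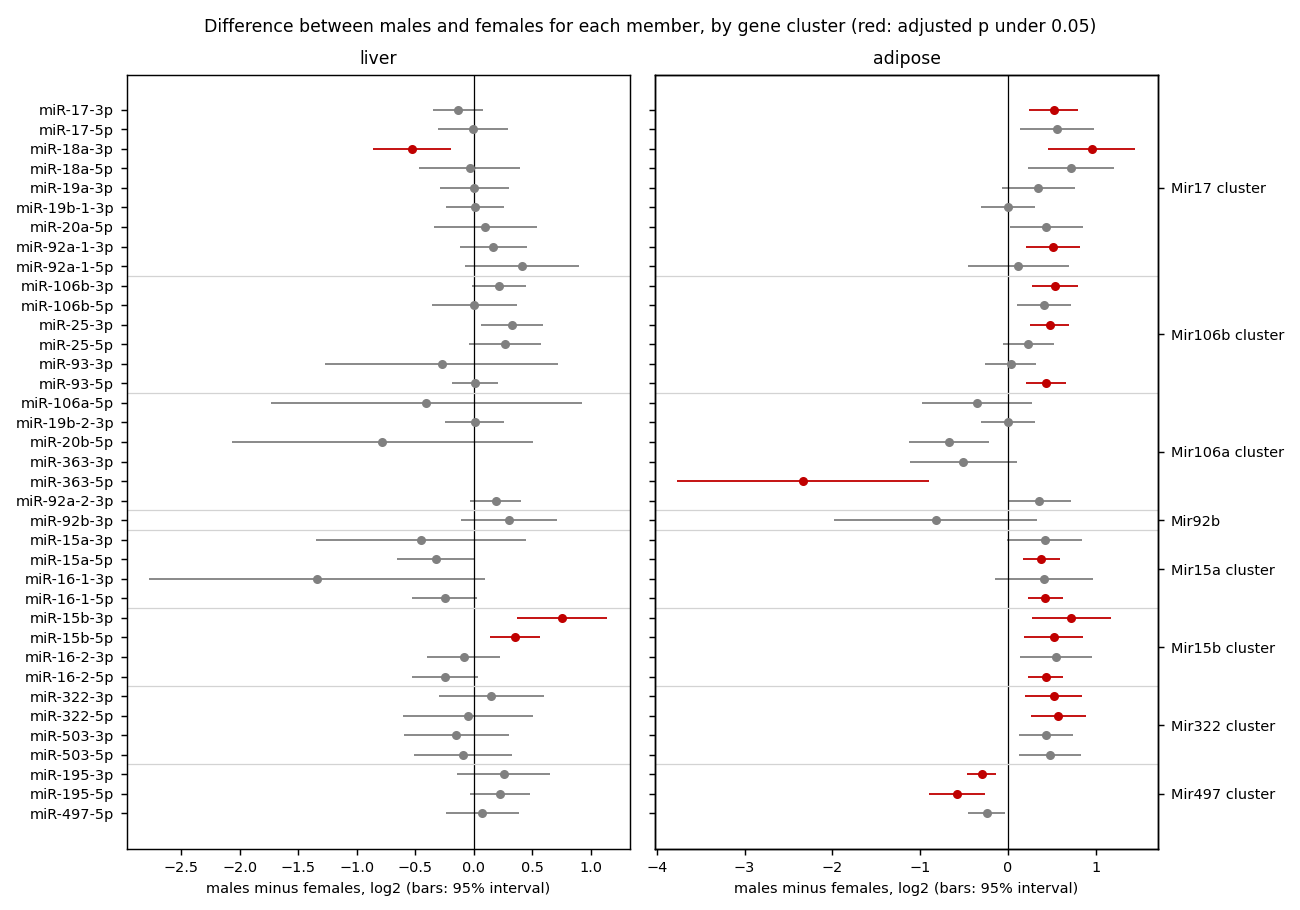
Difference between males and females (log2, males minus females) for each member in liver and adipose tissue, ordered by gene cluster, with 95% intervals from limma, red where the adjusted p was under 0.05. The x axes of the panels have different ranges. In adipose tissue the Mir497 cluster lies to the left of 0 and the Mir17, Mir106b, Mir15a, Mir15b and Mir322 clusters lie at or to the right of it, whereas 3 members are called in liver.

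The Mir106b cluster gave the smallest adjusted p of the members. miR-25-3p, which shares its seed with miR-92a and restrains Bim, had a signal of 38278, 49211, 48939, 65427 and 59039 in WTF, from 36732 to 61118 with a median of 53162 in HUMF, 110284, 66688, 117339 and 72917 in WTM and 49189.7, 52267, 49653, 64006 and 64911 in HUMM. The highest values were those of WTM 11 and WTM 6, and the lowest WTM library lay above every humanized male. The difference between males and females was 0.47 ± 0.10 on the log2 scale (estimate and SE), or 1.39-fold higher in males (limma adjusted p = 0.00823). miR-93-5p, the main carrier of the miR-17 seed, had 41535, 43178, 55464, 40187 and 41434 in WTF, from 33680.4 to 50639 with a median of 40482 in HUMF, 82174, 63712, 61824 and 42519 in WTM and 56828, 56182, 49798, 37825 and 66278 in HUMM. It was 1.35-fold higher in males (0.43 ± 0.11, limma adjusted p = 0.0186), with WTF replicate 8 above 3 of the 9 male libraries. miR-106b-3p, the other strand of the miR-106b hairpin, had 5702, 7260.2, 6066, 6299 and 5865 in WTF, from 4379 to 6318 with a median of 5203 in HUMF, 15666, 8243, 12741 and 7120.2 in WTM and 6356, 7103, 6445, 5721 and 7294 in HUMM. Here too the high libraries were WTM 6 and WTM 11, and the difference was 0.54 ± 0.12 (limma adjusted p = 0.0101). miR-106b-5p itself differed by 0.41 ± 0.15 and was not called (limma adjusted p = 0.0849).

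In the Mir17 cluster the called members were miR-18a-3p, miR-17-3p and miR-92a-1-3p. miR-92a-3p, a member known for restraining vessel growth, had a signal of 8572, 14332, 10795, 24709.6 and 21372 in WTF, from 8514 to 25991 with a median of 13770.0 in HUMF, 18503, 19015, 37493 and 27369 in WTM and 12233, 9923, 13378, 27135 and 34957 in HUMM. Its groups overlapped widely, and in each group the highest library was one whose name puts the tag first. The difference was 0.51 ± 0.15 (limma adjusted p = 0.0352). miR-17-3p, the other strand of the miR-17 hairpin, had 565, 675, 417, 585 and 588 in WTF, from 500.0 to 706 with a median of 573 in HUMF, 1424, 795, 941 and 720.0 in WTM and 883, 627, 678, 614 and 845 in HUMM and was 1.43-fold higher in males (limma adjusted p = 0.0223). miR-18a-3p, the other strand of miR-18a, was low, at 39.8, 79.5, 38.9, 54.9 and 79.8 in WTF, from 23.0 to 82.5 with a median of 52.5 in HUMF, 194.5, 108, 126.1 and 71.6 in WTM and 102, 71.2, 79.0, 66.1 and 129.8 in HUMM, and its difference was 0.96 ± 0.24 (limma adjusted p = 0.0163). Of the main strands, miR-18a-5p had 169, 179, 185, 88.3 and 111 in WTF, from 78.6 to 259 with a median of 123 in HUMF, 347, 188, 123 and 121 in WTM and 501, 317, 236, 106.2 and 530.3 in HUMM, and its difference of 0.72 ± 0.23 was not called (limma adjusted p = 0.0606). miR-19b-3p, a main strand of the cluster, had 3266, 3200.1, 3531, 1901 and 3374 in WTF, from 2646 to 4443 with a median of 3414 in HUMF, 3429, 1648, 3462 and 2429 in WTM and 4200.1, 3526, 4201, 3377 and 3753 in HUMM, with a difference of 0.00 ± 0.15 and a 95% interval of -0.31 to 0.31. miR-17-5p and miR-20a-5p had differences of 0.55 ± 0.20 and 0.44 ± 0.20 that were not called (limma adjusted p = 0.0849 and 0.158).

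The miR-15/16 family split by locus. miR-16-5p, its most abundant member, had 65316, 79425, 70207, 76713 and 67516 in WTF, from 60401 to 77974 with a median of 65339.5 in HUMF, 138038, 89734, 108894 and 80295 in WTM and 103204, 87153, 79611, 66716 and 92083 in HUMM, with the 2 highest values in WTM 6 and WTM 11. The difference was 0.42 ± 0.09, 1.34-fold higher in males (limma adjusted p = 0.00858), and the duplicate entry for Mir16-2 was called at 0.00829. miR-15a-5p had 7981, 9211, 10376, 8118 and 7783 in WTF, from 6852 to 10482 with a median of 8499 in HUMF, 15317, 9599, 12181 and 9407 in WTM and 13877, 10563, 11291, 8128 and 10984 in HUMM and a difference of 0.38 ± 0.10 (limma adjusted p = 0.0223). miR-15b-5p had 1054, 1778, 1298, 2121 and 1676 in WTF, from 1067 to 1822 with a median of 1467 in HUMF, 3181, 1668, 4428 and 1903 in WTM and 1992, 1764, 1488, 1909.9 and 1760.2 in HUMM. Its 2 highest libraries were again WTM 11 and WTM 6, and the difference was 0.52 ± 0.16 (limma adjusted p = 0.0439). The other strand, miR-15b-3p, had 304.3, 282, 325, 303.9 and 250.4 in WTF, from 217 to 389 with a median of 293 in HUMF, 1058, 307, 1207 and 434 in WTM and 297.8, 458, 263, 432 and 434 in HUMM and a difference of 0.72 ± 0.21 (limma adjusted p = 0.0396). All called members of the Mir15a and Mir15b clusters had WTM 6 or WTM 11 as their highest library.

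The Mir322 cluster on the X chromosome, the rodent counterpart of human miR-424 and miR-503, had its high values in other animals. miR-322-5p had 5687, 9569, 11706, 8650.5 and 10900.3 in WTF, from 6261 to 12955 with a median of 8146 in HUMF, 9306, 10716, 9528 and 14855 in WTM and 18946, 12874, 12855, 15939 and 17040.3 in HUMM. The 3 highest libraries were humanized males, and WTM 6 and WTM 11 lay inside the range of the females. The difference was 0.57 ± 0.15, 1.48-fold higher in males (limma adjusted p = 0.0226). miR-322-3p had 1467, 2096, 2487, 2409 and 1889 in WTF, from 1107 to 2676 with a median of 1705 in HUMF, 2504, 3117, 1402 and 3021 in WTM and 3361, 3399, 2728, 2867 and 2597 in HUMM and a difference of 0.52 ± 0.15 (limma adjusted p = 0.0392). miR-503-5p, which lies beside them and has the related seed, had 467, 752, 733, 786 and 800.2 in WTF, from 553 to 1052 with a median of 630.1 in HUMF, 506, 653, 793 and 1139 in WTM and 1704, 922, 847, 1325 and 1705 in HUMM. It was above every WTF library in all 5 humanized males, but its difference between the sexes of 0.48 ± 0.17 was not called (limma adjusted p = 0.0798).

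The Mir497 cluster was lower in males. miR-195-5p, which shares the seed of miR-16 and is known for holding back the cell cycle, had 20021, 17206, 19945, 22698 and 25665 in WTF, from 14702 to 28889 with a median of 20001 in HUMF, 12165, 9232, 18579 and 13888 in WTM and 14086, 16700.4, 14615, 22314 and 8122 in HUMM. Of the 9 male libraries, 7 lay below every WTF library, while WTM 11 and humanized male 10 lay among the females. The difference was -0.58 ± 0.15, 1.497-fold lower in males (limma adjusted p = 0.0232). Its other strand, miR-195-3p, had 1386, 1326, 1239.9, 1317 and 1372 in WTF, from 1049 to 1440.4 with a median of 1166 in HUMF, 1022, 985, 969 and 1066 in WTM and 1040.3, 1077, 1062, 1126 and 873 in HUMM and a difference of -0.30 ± 0.08 (limma adjusted p = 0.0223). miR-497-5p, from the same transcript, differed by -0.24 ± 0.10 and was not called (limma adjusted p = 0.128). As a ratio within each library, miR-195-5p was 0.217 to 0.380 times miR-16-5p in WTF and 0.203 to 0.457 in HUMF, against 0.0881 to 0.173 in WTM and 0.0882 to 0.334 in HUMM. The summed signal with the miR-15 seed was 128432 to 144257 in WTF, 125997 to 151102 in HUMF, 141772 to 196893 in WTM and 137715 to 187339 in HUMM, so the sexes overlapped in the sum also.

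Of the X-linked Mir106a cluster, miR-363-5p was called lower in males, but it was near the listing limit. Its signal was 31.0, 14.8, 15.3, 20.8 and 16.6 in WTF, from 0 to 56.8 with a median of 18.3 in HUMF, 0, 0, 0 and 0 in WTM and 16.3, 19.4, 24.5, 23.8 and 0 in HUMM, and all 4 WTM libraries, 1 HUMM library and 1 HUMF library were listed at 0, that is, under 10 inferred reads. Its fitted difference depends on how a 0 is set and is not given as a fold (limma adjusted p = 0.0384). miR-20b-5p of the same cluster differed by -0.67 ± 0.22 (limma adjusted p = 0.0559), miR-363-3p by -0.51 ± 0.29 (0.262) and miR-106a-5p by -0.35 ± 0.30 (0.467), none of them called. miR-92b-3p, alone at its locus, differed by -0.82 ± 0.55 with a 95% interval of -1.98 to 0.33. Its WTF replicate 10 stood at 16194, against 294 to 575 in the other WTF libraries. The remaining members that were not called were miR-503-3p, miR-16-2-3p, miR-15a-3p, miR-16-1-3p, miR-19a-3p, miR-25-5p, miR-92a-1-5p, miR-93-3p and miR-92a-2-3p, with differences from 0.03 to 0.55.

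**Figure D3:**
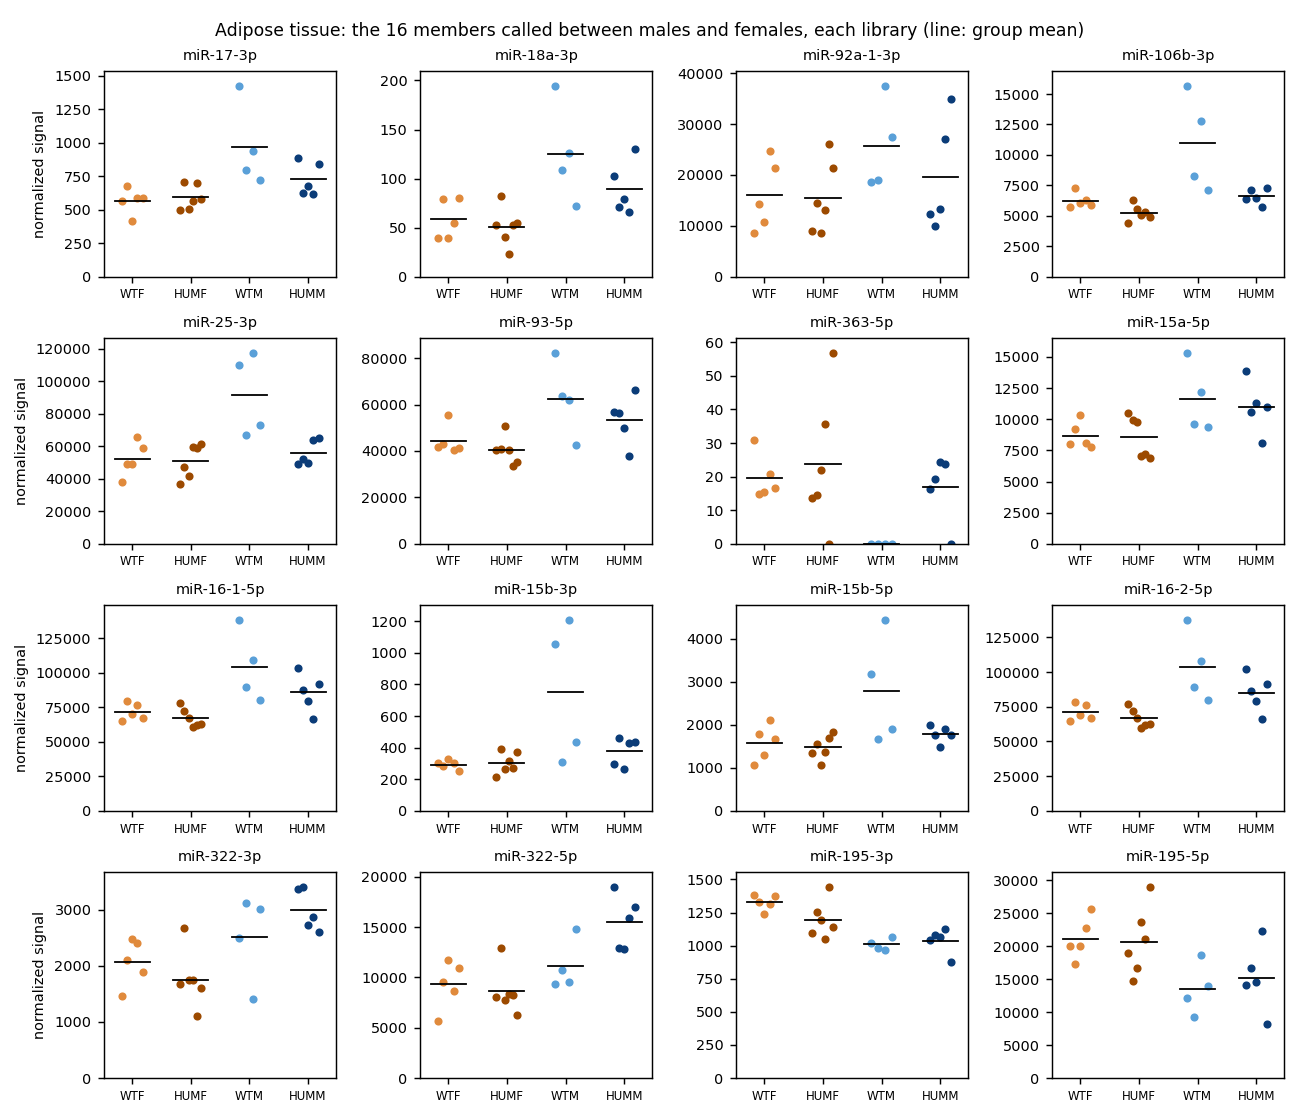
Normalized signal of the 16 members called between males and females in adipose tissue, 1 point per library, with lines at the group means (WTF n = 5, HUMF n = 6, WTM n = 4, HUMM n = 5). The Mir17, Mir106b, Mir15a and Mir15b members have their highest points mostly in WTM, miR-322-5p in HUMM, and the miR-195 strands lie lower in both groups of males.

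The WTM libraries with the high values were also those with the highest erythroid marker sums, 523818 in WTM 6 and 427399 in WTM 11, against 239880.4 in WTM 9 and 116849 in WTM 12. Their hepatocyte sums were 311238 and 780923, the highest of all adipose libraries. Without these 2 libraries, 3 of the 37 members were called between males and females (of 66 small RNAs in all): miR-322-5p, 0.68, miR-322-3p, 0.70, and miR-195-5p, -0.68 on the log2 scale. miR-25-3p then differed by 0.30, miR-106b-3p by 0.31 and miR-16-5p by 0.29. Of the other members no longer called, miR-93-5p then differed by 0.32, miR-17-3p by 0.36, miR-18a-3p by 0.75, miR-92a-3p by 0.46, miR-15a-5p by 0.25, miR-15b-5p by 0.25, miR-15b-3p by 0.31 and miR-195-3p by -0.29, and miR-363-5p had a limma adjusted p of 0.0919. With the log2 erythroid sum as a further term in the model, no member was called and 10 small RNAs were called in all. The difference of miR-25-3p was then 0.09, that of miR-106b-3p 0.09, that of miR-16-5p 0.24 and that of miR-15b-5p -0.07, whereas miR-322-5p differed by 0.70, miR-322-3p by 0.65, miR-195-5p by -0.71 and miR-195-3p by -0.37. The part that blood or liver RNA had in the differences was not tested beyond these fits.

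**Figure D4:**
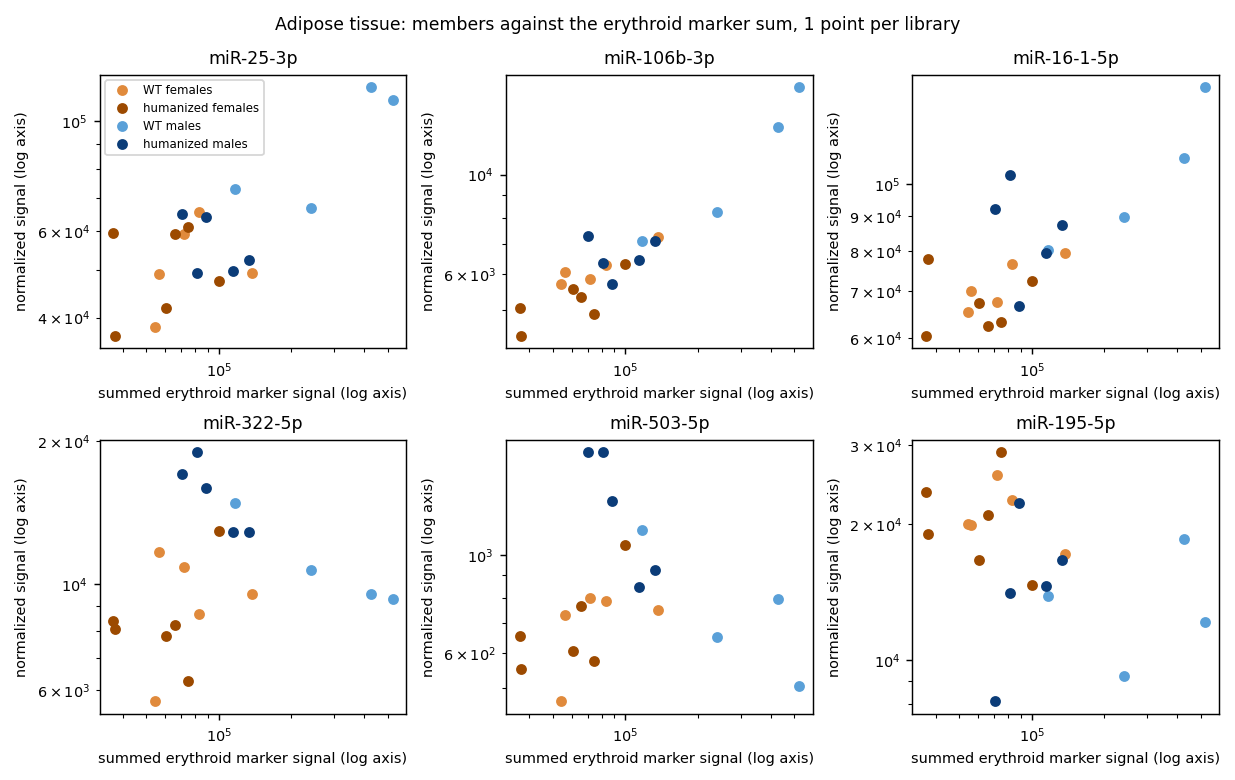
Normalized signal of 6 members against the summed signal of the erythroid microRNAs in the 20 adipose libraries (both axes log), coloured by group. miR-25-3p, miR-106b-3p and miR-16-5p are highest in the WTM libraries with the highest erythroid sums. miR-322-5p and miR-503-5p are highest in humanized males with sums of 70188 to 88359, below those of every WTM library. miR-195-5p is lower in most males than in most females.

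Sex was also compared within each genotype and within each form of library name. Within WT, 7 members were called (of 60 small RNAs), among them miR-25-3p (0.76), miR-106b-3p (0.75) and miR-16-5p (0.53). Within humanized mice, 2 were called (of 27), miR-322-5p (0.87) and miR-503-5p, and miR-25-3p differed by 0.19. No member differed between the genotypes in its sex effect by the test of that difference (0 of 37 called and 0 of 1298 small RNAs, or 0%, with 4 members under an unadjusted p of 0.05). With only libraries whose names put the tag first, 0 members were called (of 10), and with only those that put the group first 1, miR-363-5p (of 40). All 16 members kept their direction in both, but they had been chosen from these same libraries, so this is no independent support. Leaving out single libraries gave 8 to 18 calls, and only without WTM replicate 6 did the count move by over 1.5 times, to 8 members (of 73 small RNAs).

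Between the genotypes, no member was called in adipose tissue. In males 0 of 37 members and 8 of 1298 small RNAs (0.616%) were called, with 13 members under an unadjusted p of 0.05. The share of all small RNAs under that unadjusted p is not given here, so the 13 cannot be read as an excess. miR-25-3p came nearest: the 4 WTM libraries held the signals given above and all lay above the 5 HUMM libraries, 66688 to 117339 against 49189.7 to 64911. Humanized minus WT males was -0.64 ± 0.16 (limma adjusted p = 0.0541). miR-106b-3p differed by -0.68 ± 0.18 (limma adjusted p = 0.0838) and miR-503-5p, higher in humanized males, by 0.78 ± 0.25 (limma adjusted p = 0.135). miR-363-5p, listed at 0 in all 4 WTM libraries and in 1 of 5 HUMM libraries, had a limma adjusted p of 0.0986. WTM held the highest erythroid and hepatocyte sums here too. With the erythroid sum in the model, miR-25-3p differed by -0.17 and miR-106b-3p by -0.12, and miR-503-5p by 0.66. Without WTM 6 and 11, miR-25-3p differed by -0.29, miR-106b-3p by -0.23 and miR-503-5p by 0.56, miR-363-5p had a limma adjusted p of 0.272, and no member was called. Without WTM replicate 12, the WTM library with the lowest erythroid sum, miR-25-3p (-0.81) and miR-106b-3p (-0.85) were both called in males, and over both sexes. Without HUMF replicate 11, miR-363-5p was called in males. By genotype in females, and in both sexes together, 0 of 37 members and 0 of 1298 small RNAs (0%) were called, with 0 and 8 members under an unadjusted p of 0.05. In females the members' differences ran from -1.26 to 0.29 with a median of -0.08. The lower end was that of miR-92b-3p, where WTF replicate 10 stood at 16194. The other WTF libraries held 294 to 575 and the HUMF libraries 205 to 841.

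In liver, few members differed between the sexes. Of 35 members tested (miR-363-3p and miR-363-5p were too low), 3 were called, against 77 of 837 small RNAs (9.20%), so the members' share was near that of all small RNAs. They were 2 higher in males (all small RNAs 5.14%) and 1 lower (4.06%). Both strands of miR-15b were higher in males. miR-15b-3p had a signal of 70.4, 43.5, 53.9, 50.6 and 53.9 in WTF, 56.5, 60.3, 53.6, 50.4 and 72.8 in HUMF, 125, 59.2, 103, 69.2 and 174 in WTM and from 51.5 to 137 with a median of 96.0 in HUMM, and differed by 0.75 ± 0.18, 1.69-fold higher in males (limma adjusted p = 0.0185). miR-15b-5p had 489, 314, 349.6, 358 and 311 in WTF, 412, 427, 359, 420.1 and 440.3 in HUMF, 624, 455, 383, 523 and 496 in WTM and from 400.1 to 579.6 with a median of 505 in HUMM, and differed by 0.35 ± 0.10 (limma adjusted p = 0.0373). The ranges overlapped for both strands, WTF 1 being the highest female for miR-15b-5p. miR-18a-3p went the other way, with 36.3, 26.6, 43.1, 32.7 and 31.9 in WTF, 33.0, 34.6, 28.3, 26.7 and 33.9 in HUMF, 21.5, 21.0, 15.02, 21.6 and 18.1 in WTM and from 18.3 to 34.1 with a median of 26.2 in HUMM, and was 1.44-fold lower in males (-0.53 ± 0.16, limma adjusted p = 0.0431), opposite to adipose tissue. Its level was close to the signal of 10 reads. Erythroid microRNA sums in liver were 12044 to 49518 in WTM and 7346 to 32949.9 in HUMM, against 9767 to 17499 in WTF and 12026 to 17175 in HUMF. With that sum in the model, no member was called (4 small RNAs in all), and the differences were 0.37 for miR-15b-3p, 0.27 for miR-15b-5p and -0.57 for miR-18a-3p. Leaving out single libraries gave 1 to 3 calls, and miR-15b-3p was called in each of these fits. It was the only call without WTF 3, 4 or 5, HUMF 1, 2, 3 or 4, WTM 1 or 5, or HUMM 2, 4 or 5.

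The abundant members of liver overlapped between the sexes. miR-16-5p had 21717, 18477, 32095, 25279.7 and 19961 in WTF, 21788, 17899, 25013, 27049.8 and 20199.8 in HUMF, 20965, 22821, 15363, 18623 and 17656 in WTM and from 11464 to 24685 with a median of 19899 in HUMM, a difference of -0.25 ± 0.13 (limma adjusted p = 0.263). miR-92a-3p had 28967, 16761, 17277, 16253 and 15921 in WTF, 28149.7, 34087, 16217, 19608 and 14422 in HUMF, 30146, 26486, 19054, 13709.7 and 17637 in WTM and from 11721 to 47112 with a median of 26426 in HUMM, spread as widely within groups as between them. miR-93-5p had 11416, 11379, 13414, 14113 and 14305 in WTF, 12235, 10792, 11703, 12742 and 11145 in HUMF, 12232, 11599.7, 13093, 13604 and 11523 in WTM and from 7580.4 to 15243 with a median of 13099.9 in HUMM, a difference of 0.01 ± 0.09 and a 95% interval of -0.18 to 0.20. miR-19b-3p, with 2589, 3723, 2321, 2106 and 2697 in WTF, 2631, 2029.8, 2599.6, 1866 and 2014 in HUMF, 1919, 2118, 2622, 3158 and 2158 in WTM and from 1878 to 2882 with a median of 2596 in HUMM, differed by 0.01 ± 0.12. The lowest family leaders were miR-18a-5p (38.4, 102, 65.6, 78.1 and 63.8 in WTF, 37.4, 34.6, 103, 67.2 and 67.8 in HUMF, 32.3, 24.98, 89.2, 83.1 and 90.3 in WTM and from 23.2 to 109.7 with a median of 72.1 in HUMM) and miR-503-5p (64.0, 137, 76.4, 114 and 97.7 in WTF, 92.2, 69.2, 83.4, 112 and 107 in HUMF, 47.6, 137, 99.5, 95.2 and 64.1 in WTM and from 54.8 to 125.6 with a median of 101 in HUMM), whose differences were -0.03 ± 0.21 and -0.09 ± 0.20. None of these was called. miR-25-3p differed by 0.32 ± 0.13 (limma adjusted p = 0.114). The Mir322 and Mir497 clusters, called in adipose tissue, had no member called in liver, where miR-322-5p differed by -0.05 ± 0.27 and miR-195-5p by 0.22 ± 0.12. Whether the sex differences of the tissues differ was not tested, since the tables were normalized apart and share animals.

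No member was called between the genotypes in liver. By genotype 0 of 35 members were called and 0 of 837 small RNAs (0%), whether the sexes were taken apart or together, and the difference between the sexes in this effect gave 0 of 35 (0%). Under an unadjusted p of 0.05 the members numbered 1 in males, 0 in females and 1 for the 2 sexes together. The smallest p in males was that of miR-92b-3p, with 94.9, 55.6, 35.1, 55.0 and 59.8 in WTF, 124, 73.2, 44.4, 23.7 and 36.04 in HUMF, 185, 113, 50.7, 71.0 and 55.8 in WTM and from 38.1 to 74.2 with a median of 57.9 in HUMM and humanized minus WT males of -0.66 ± 0.27 (limma adjusted p = 0.847). In females it was that of miR-17-3p, with 182, 194.7, 243, 228.96 and 219 in WTF, 305, 222.6, 257, 276 and 245 in HUMF, 301, 234, 182, 239 and 171 in WTM and from 189 to 232 with a median of 208 in HUMM and a difference of 0.29 ± 0.15 (limma adjusted p = 0.998). Over both sexes it was that of miR-92a-2-3p, with 917, 767, 1065, 1077 and 875 in WTF, 1185, 1003, 1103, 930.2 and 1054 in HUMF, 1079, 1077, 1175, 779 and 1061 in WTM and from 974.5 to 1633 with a median of 1191 in HUMM and a difference of 0.23 ± 0.10 (limma adjusted p = 0.986). For miR-16-5p the 95% interval of the genotype difference over both sexes was -0.30 to 0.26, for miR-93-5p -0.26 to 0.12 and for miR-25-3p -0.24 to 0.28 on the log2 scale.

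The mRNA tables hold the hosts, regulators and described targets of the families. Of 50 listed genes tested in liver, 10 differed between males and females, 8 lower in males and 2 higher, against 1456 of 15180 genes (9.59%), 5.47% lower and 4.12% higher. Among the host genes 1 of 4 was called: Dleu2, the long noncoding RNA that carries miR-15a and miR-16-1, had 589, 453 and 778 in WTF, 762, 729 and 938 in HUMF, 293, 324 and 237.3 in WTM and 401, 687 and 311 in HUMM, and was 1.95-fold lower in males (-0.97 ± 0.20, limma adjusted p = 0.0149). miR-15a-5p, of that locus, was on the lower side in male liver, by -0.32, but was not called (limma adjusted p = 0.223). miR-16-5p differed by -0.25 and was not called either (limma adjusted p = 0.263). Its reads cannot be assigned to Mir16-1 in Dleu2 or Mir16-2 in Smc4, so its value does not bear on the Dleu2 locus alone. Smc4, the host of the miR-15b locus, differed by 0.15 ± 0.10 and Mcm7, the host of the Mir106b cluster, by -0.10 ± 0.11 (limma adjusted p = 0.341 and 0.585). Of 13 regulators, 2 were higher in males. Tarbp2, a partner of Dicer, had 1421, 1192 and 1180.0 in WTF, 1214, 1325 and 1402 in HUMF, 1581, 1862 and 1793 in WTM and 1600.2, 1688 and 1509 in HUMM (0.38 ± 0.09, limma adjusted p = 0.0321). E2f1, which both drives the miR-17-92 cluster and is restrained by it, had 154, 180.0 and 144.96 in WTF, 182, 144.9 and 79.7 in HUMF, 188, 198 and 396 in WTM and 222.8, 281 and 423 in HUMM (0.92 ± 0.25, limma adjusted p = 0.0439).

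Of 20 described targets of the miR-17-92 seeds tested in liver, 6 were called, 5 of them lower in males and E2f1 higher. Klf2 and Klf4, transcription factors of quiescent endothelium, had 784, 1047 and 1045 in WTF, 1542, 758 and 1039.8 in HUMF, 365.5, 309 and 430.5 in WTM and 636, 593 and 545 in HUMM for Klf2 and 179, 371 and 256 in WTF, 249.7, 225 and 299 in HUMF, 85.5, 61.1 and 119 in WTM and 74.2, 114 and 100.3 in HUMM for Klf4. In both, every male library lay below every female one, and the differences were -1.12 ± 0.18 (limma adjusted p = 0.00379) and -1.50 ± 0.23 (0.00354). Bcl2l11, which encodes Bim, had 982, 736 and 1147 in WTF, 805, 746 and 969 in HUMF, 196, 474 and 341 in WTM and 669, 520.1 and 475 in HUMM, again without overlap, and differed by -1.08 ± 0.22 (limma adjusted p = 0.0124). Cdkn1c, the cell cycle inhibitor p57, had 459, 458 and 257 in WTF, 348, 417 and 671 in HUMF, 84.7, 201 and 129.7 in WTM and 159, 173 and 179.5 in HUMM and differed by -1.48 ± 0.26 (limma adjusted p = 0.00657). Tgfbr2, a TGF-beta receptor, had 2053, 1330.2 and 2626 in WTF, 2261, 1239 and 2427 in HUMF, 1181, 341 and 767 in WTM and 916, 901 and 1505 in HUMM and differed by -1.16 ± 0.30 (limma adjusted p = 0.0377), with overlap. Of 15 targets of the miR-15/16 seed, 2 were called, both lower in males. Ccnd1, cyclin D1, had 14150.2, 12185 and 19699.9 in WTF, 8784, 8764 and 22144 in HUMF, 2989, 234 and 899.6 in WTM and 6163, 4756 and 3985 in HUMM and was 6.54-fold lower in males (-2.71 ± 0.45, limma adjusted p = 0.00493). Ccnd2, cyclin D2, had 818, 872 and 1088 in WTF, 873, 922 and 1190.3 in HUMF, 438, 592 and 491 in WTM and 899.9, 804 and 747 in HUMM and differed by -0.57 ± 0.13 (limma adjusted p = 0.0241). In WTM both cyclins were lower than in HUMM in every library. More of the HUMM than of the WTM libraries were ribosome-depleted, and these values are not adjusted for that. In the model, which holds the preparation, humanized minus WT males was not called for Ccnd1 (2.20 ± 0.65, limma adjusted p = 0.572) or Ccnd2 (0.71 ± 0.19, 0.547).

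**Figure D5:**
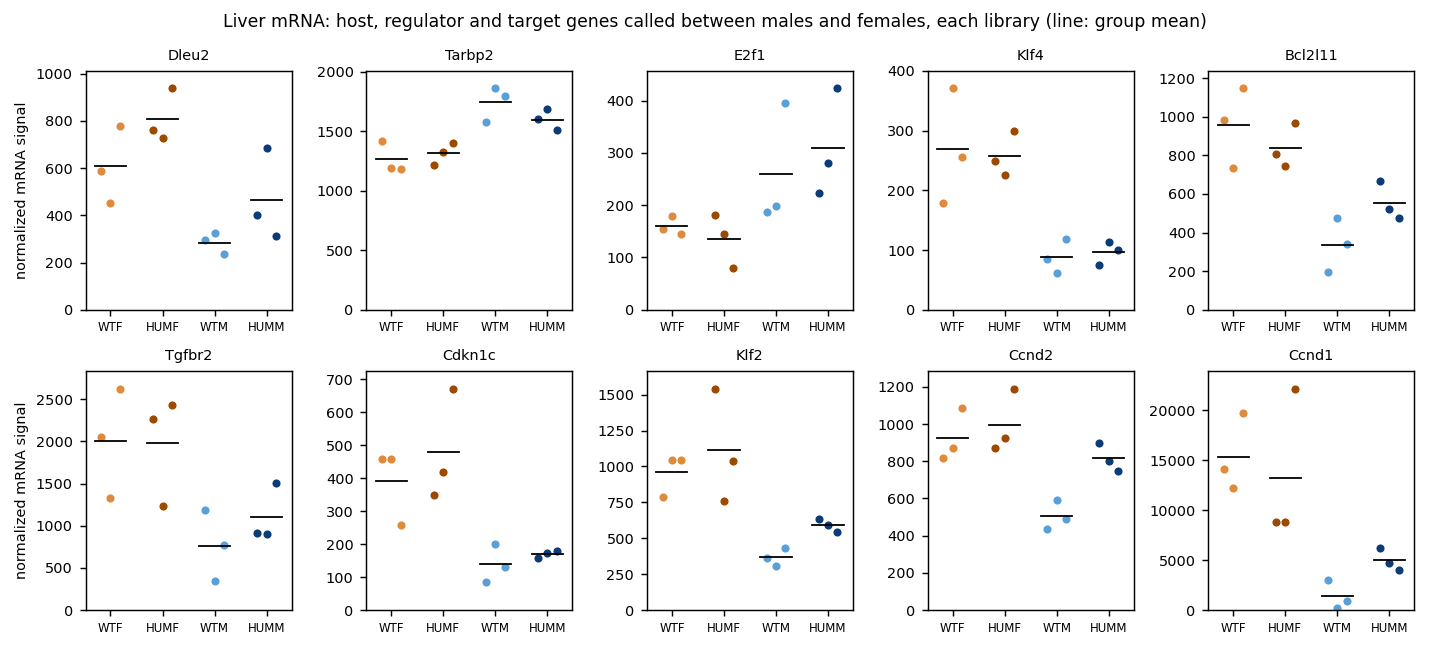
Normalized mRNA signal of the 10 host, regulator and target genes called between males and females in liver, 1 point per library (n = 3 a group), with lines at the group means. All but Tarbp2 and E2f1 are lower in males, and for Ccnd1 the WTM libraries are the lowest.

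Markers of several cell types, hepatocytes included, differed between the sexes in the same liver libraries. The 3 hepatocyte genes had median sums of 10054926 in WTF and 7620984 in HUMF, against 5619807 in WTM and 5946140 in HUMM. The erythroid genes went the other way, with medians of 26218 in WTF and 38894 in HUMF, against 49898 in WTM and 57062 in HUMM. The endothelial genes Pecam1 and Cdh5 (2 of 2 found) summed to 2447 to 4412 in WTF and 2144 to 3210.4 in HUMF, against 958 to 1766 in WTM and 1695 to 2072 in HUMM. The 3 macrophage genes summed to 4316 to 6781 and 2619 to 6596 in females, against 1698 to 3052 and 1656 to 3706 in males. The 4 genes of proliferating cells did not follow sex. They summed to 296 to 489, 181 to 297, 146.2 to 175 and 125.7 to 727 in WTF, HUMF, WTM and HUMM, and the highest median, 442, was that of HUMM. The part of these cell types in the target genes' differences was not tested. Klf4, Klf2, Bcl2l11, Cdkn1c, Ccnd1 and Dleu2 stayed called without any single library and under every alternative run. E2f1 and Tarbp2 each lost the call without any of 10 of the 12 libraries, Tgfbr2 without 7 and Ccnd2 without 4, and the count of genes called ran from 6 to 9, with 6 without HUMM replicate 2, HUMF replicate 3 or WTF replicate 3. The mRNA libraries carry no animal tag that links them to the small RNA libraries, so no gene was set against a microRNA animal by animal. Between the genotypes, no listed gene was called in liver. All genes called made up 0.0329% in males, 0.0198% in females, 0.0329% over both sexes and 0.00659% for genotype by sex. Listed genes under an unadjusted p of 0.05 numbered 6, 1, 1 and 5 in these comparisons.

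In adipose tissue no host, regulator or target gene was called: 0 of 51 tested in any comparison, against 73 of 17394 genes (0.420%) between males and females and 0.0172% between the genotypes in males, 0.0172% in females, 0.0230% over both sexes and 0% for genotype by sex. Under an unadjusted p of 0.05 were 9 listed genes by sex, and 6, 4, 2 and 6 in the genotype comparisons. Mycn, a MYC family driver of the miR-17-92 cluster, had 21.8, 13.6 and 9.33 in WTF, 19.5, 39.3 and 21.2 in HUMF, 76.6 and 40.9 in WTM and 48.5, 46.5 and 56.2 in HUMM; males were 2.71-fold higher, not called (limma adjusted p = 0.127). Mcm7, the host of the Mir106b cluster, had 2245, 2429.7 and 2049.8 in WTF, 2402, 1933 and 2539.6 in HUMF, 2680.5 and 3526 in WTM and 2674, 2536 and 2281 in HUMM, and E2f2, an E2F activator, 632, 414 and 338 in WTF, 397, 255 and 239 in HUMF, 840.4 and 574 in WTM and 410.1, 362 and 609 in HUMM, and their sex differences were 0.29 ± 0.11 and 0.64 ± 0.24 (limma adjusted p = 0.312 and 0.317). Mir17hg, the host of the Mir17 cluster, had 194.5, 169 and 176 in WTF, 217, 227 and 208 in HUMF, 271 and 292.005 in WTM and 184, 201 and 138 in HUMM. Both WTM libraries were above the other groups, and the difference of the genotype effect between males and females was -0.98 ± 0.31 (limma adjusted p = 0.643). Thbs1, thrombospondin 1, a described target of miR-18 and miR-19, had 11452, 16566 and 12353 in WTF, 13524, 9871 and 29579.9 in HUMF, 63344 and 52875 in WTM and 17704, 11019 and 14191 in HUMM. The WTM libraries again stood above all others, but humanized minus WT males, -2.04 ± 0.40, was not called (limma adjusted p = 0.194). Without HUMF replicate 6, Thbs1 was called by sex, as the only listed gene. Rbl1, a relative of the retinoblastoma protein, differed by 0.48 ± 0.18 in males (0.505). Ccnd2 had 35025, 36640.1 and 51768 in WTF, 34970.1, 42067 and 34021 in HUMF, 26418 and 20900.0 in WTM and 39789.7, 33386 and 30781 in HUMM and Wee1, a kinase that delays mitosis, 1294, 1091 and 711 in WTF, 2268, 1528 and 1451 in HUMF, 808 and 985 in WTM and 957, 869.6 and 800.0 in HUMM; their smallest p stood in males against females (-0.44 ± 0.14) and in females by genotype (0.77 ± 0.24). WTM adipose mRNA had erythroid sums of 419792 to 2159303, against 71658 to 132912 in WTF, 61436 to 364911 in HUMF and 119096 to 309905 in HUMM, and hepatocyte sums of 1099 to 172977 against at most 15435 elsewhere; their part in these values was not tested.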

How the data were processed

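Small RNA and mRNA were sequenced from liver and gonadal adipose tissue. The deposited small RNA tables hold a normalized signal per id, listed only from 10 reads as inferred from the values, and the deposited mRNA tables a normalized signal per gene; the batch-corrected rlog tables hold values that the authors had put on a log2 scale. Per the submitters' processing notes, STAR, Salmon, DESeq2, limma and mm9 were used, with roles and versions not given in the sources used here. Features with a mean of at least 10 were tested as log2(signal + 1) with limma 3.58.1 (R 4.3.3; empirical Bayes with trend), 1 model per table over the 4 groups, with the form of the library name (small RNA) or the labelled preparation (liver mRNA) as covariate. Calls had a Benjamini-Hochberg adjusted p under 0.05 over all features tested. Counts under an unadjusted p of 0.05 are given without the share over all features and cannot be read as an excess. Fold changes are on the log2(signal + 1) scale and understate low members. The script was tested on simulated data. The members, the gene lists and the marker lists were chosen with earlier results of these data known. Values in every library are given for members called in any comparison of a tissue, filled up to 6 by smallest p, and for the highest member of each seed family; of the genes, for those called and otherwise the 2 with the smallest p of each list. Small RNA library names carry 21 different animal tags in liver and 20 in adipose tissue, as many as the libraries, whereas mRNA labels carry none. Beyond these tags, labels say only that the replicates are separate samples, so p-values measure the spread between these. Alternatives changed the pseudocount, filter, scaling, covariates, libraries and the table used.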

Additional observations from a re-analysis of the deposited data

Results flagged for a closer look

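In groups of 4 to 10 libraries, a single library stood apart from the rest of its group by Dixon's criterion in 7 of 123 groups of the named members; chance gives about 1 in 20. miR-15b-5p in liver had its highest WTF value, 489, in replicate 1, with 358 as the nearest other value of the group. miR-92a-2-3p in liver had its lowest WTM value, 779, in replicate 4, with 1061 as the nearest other value of the group. miR-92a-1-3p in liver had its highest WTF value, 28967, in replicate 1, with 17277 as the nearest other value of the group. miR-93-5p in adipose had its highest WTF value, 55464, in replicate 8, with 43178 as the nearest other value of the group. miR-322-5p in adipose had its highest HUMF value, 12955, in replicate 7, with 8367 as the nearest other value of the group. miR-19b-2-3p in adipose had its lowest WTF value, 1901, in replicate 10, with 3200.1 as the nearest other value of the group. miR-503-5p in adipose had its lowest WTF value, 467, in replicate 6, with 733 as the nearest other value of the group.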

How the results depend on the processing

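Members called between males and females in adipose tissue (16) numbered 7 with no covariate, 10 with equal totals, 0 with only tag-first and 1 with only group-first library names, 0 with the erythroid covariate, 7 within WT, 2 within humanized mice, 3 without WTM replicates 6 and 11, and 8 to 18 without 1 library; the erythroid covariate, the fits within a genotype and the one without WTM replicates 6 and 11 were chosen after seeing the data. The difference of miR-15b-5p turned to -0.0709 with the erythroid covariate. In liver (3) the count was 1 with no covariate and with equal totals, 0 with only tag-first names, with the erythroid covariate, within WT and within humanized mice, and 1 to 3 without 1 library. In adipose males by genotype (0) it was 1 with only group-first names and in the rlog table and 0 to 2 without 1 library, and over both sexes 0 to 2. The listed mRNAs called by sex were 6 to 9 without 1 library in liver and 0 to 1 in adipose tissue. The causes were not tested.

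With the replicate number as a block, the counts were 11 in adipose tissue, 2 in liver and 9 for liver mRNA; 9, 2 and 8 of these were also called without it. Deviations of same-numbered small RNA libraries correlated over 0.1 in only 2 of 17 pairs in adipose tissue and 6 of 30 in liver. For liver mRNA it was 3 of 18. Adipose mRNA differed, with 9 of 15 pairs over 0.1 and a median of 0.15, against -0.09 for different numbers. Whether the numbers pair the adipose mRNA samples was not settled, and its main model held no term for them. Equal totals moved the median of all adipose small RNAs by 0.16 between the genotypes in males, 0.11 over both sexes and 0.11 for genotype by sex. All liver calls by sex split 43 higher and 34 lower as reported, 43 and 21 with equal totals, and 33 and 37 with TMM. All adipose calls by sex split 56 and 74 as reported and 30 and 81 with equal totals. The other pseudocount, filter, TMM and rlog settings kept each count by sex within 1.5 times and no other genotype count changed. The edgeR fit on recovered reads was not run. Members near 10 reads, such as miR-363-5p and miR-18a-3p in liver, are limited by depth.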

Other observations

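The strands of a hairpin were not in a fixed ratio across libraries. The signal of miR-106b-3p over miR-106b-5p was 1.12 to 2.64 in WTF, 0.758 to 2.12 in HUMF, 1.52 to 3.13 in WTM and 0.932 to 2.23 in HUMM adipose tissue. In liver, miR-322-5p over miR-322-3p was 1.34 to 1.70 in WTF, 0.977 to 2.11 in HUMF, 0.938 to 1.60 in WTM and 0.939 to 1.74 in HUMM. In adipose tissue it was 3.59 to 5.77 in WTF, 3.92 to 7.43 in HUMF, 3.44 to 6.79 in WTM and 3.79 to 6.56 in HUMM. The 5p strand was thus the higher one in every adipose library. The unshifted miR-322-3p leaves out the shifted forms given in the report, and the part of these in the ratio was not tested.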
